A study of Apis mellifera with 36 samples.

Results

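The 12 libraries described here came from female (worker) embryos of the honeybee, Apis mellifera, collected at 72 h and at 48 h after egg laying (AEL), 6 embryos at each time, out of 36 embryos in the whole series. They were chosen by their labels alone, as all female embryos of these times. The 72 h embryos were 3 daughters of queen 1 (P1, replicates 4, 14 and 15) and 3 of queen 2 (P2, replicates 22, 25 and 29), and the 48 h embryos were 3 daughters of queen 1 (replicates 7, 8 and 15) and 3 of queen 2 (replicates 18, 29 and 30). The question put to them was which annotated gene functions were higher and which were lower at 72 h than at 48 h, the day on which the organs form. The study also sampled females at 24 h and males of the same queens at all times. Every library held the RNA of 1 whole embryo, amplified before sequencing, so that fewer cells of a type and less RNA per cell cannot be told apart. Both queens were mated, and eggs were timed from a laying window that the labels give as 2 h and the methods as 3 h. All embryos of queen 1 belonged to the first batch in the labels and all of queen 2 to the other, so that queen and batch cannot be told apart, while both times were present in each.

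In insect embryos the long axis is first divided by gap and pair-rule genes, which encode transcription factors with short-lived regional patterns. Hox genes then give each segment its identity, and segment polarity genes such as engrailed and those of the Wnt and Hedgehog pathways hold the borders between segments. Mesoderm, nerve cord, gut, tracheae and epidermis take shape afterwards, with basement membranes, neurites and finally a chitinous cuticle, before the larva leaves the egg.

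The deposited counts on the 12365 genes of the tables summed to between 5600680 and 7345814 per embryo at 72 h and between 5503556 and 7944906 at 48 h, so that depth was similar in both groups. A mean of 10979.5 genes had at least 1 count at 72 h and 10756 at 48 h. One gene of unknown function, LOC100578903, took 1.34% ± 1.05 of the counts at 72 h and 14.4% ± 1.37 at 48 h (SD, n = 6 each), and the 5 most abundant genes together took 4.34% ± 1.13 at 72 h and 17.4% ± 1.49 at 48 h. Levels are given as CPM, the count per library size after TMM scaling, which limits the pull of such dominant genes on the others. Where 3 values are given for a time, they are the lowest, the median and the highest of its 6 embryos. The labels give each library as a separate embryo, and all pairs of replicates within a queen and time differed by more than counting noise (chi-square of at least 6.75 per gene), so that none of these pairs appeared to be the same library. Pairs across queens or times were not compared. Of the marker genes set for neurons, LOC410689 (ELAV-like protein 2-like) had 19.8, 41.1 and 49.3 CPM at 72 h, against 8.35, 13.1 and 18.8 CPM at 48 h, and Syt1, the calcium sensor of synaptic vesicles, had 2.62, 4.3 and 4.99 CPM at 72 h, against 0.183, 0.839 and 1.7 CPM at 48 h. In both genes every 72 h embryo was above every 48 h embryo, but the medians in 24 h females were 40.1 CPM for LOC410689 and 27.2 CPM for Syt1, so that neither was a marker of late embryos alone. The 47 genes of the cuticle protein list, 12 of them tested, summed to 349 ± 83 CPM at 72 h and 515 ± 105 CPM at 48 h. The 36 genes of the sarcomere list, 19 of them tested, summed to 2058 ± 129 CPM at 72 h and 1833 ± 148 CPM at 48 h. Among genes that would mark material from adult bees, vitellogenin (Vg), the yolk precursor, had at most 0.517 CPM at 72 h and 0.273 CPM at 48 h. The 12 royal jelly protein genes, 3 of them tested, summed to 33.1 ± 13 CPM at 72 h and 23 ± 3.18 CPM at 48 h.

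Among the 2988 genes called between the times, the 72 h embryo nearest to the 48 h level was queen 1 replicate 15 for 964 genes (32.3%), and the other 5 were nearest for 194 to 667 genes each. The 48 h embryo nearest to the 72 h level was queen 2 replicate 30 for 1054 genes (35.3%), and the other 5 were nearest for 318 to 568. On the scale where the mean of the 48 h group is 0 and that of the 72 h group is 1, the median positions of these embryos over the called genes were 0.954 and 0.09. Leaving both out, an alternative chosen after seeing the data, gave 2045 genes higher and 1103 lower at 72 h. Since both were picked as nearest to the other time, leaving them out tends to widen the difference between the groups.

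Of 8942 genes with enough counts to test, 1965 (22%) were higher and 1023 (11.4%) were lower at 72 h than at 48 h, in the quasi-likelihood test of edgeR with queen as a term, with limits of 0.05 on the adjusted p and of 1, either way, on the log2 fold change. Below, rose and fell are used of these called genes only, and a fold change is the log2 of 72 h over 48 h. The ± after a fold change, or after a difference of fold changes, is an SE worked back from the test. It is the absolute value divided by the square root of the F statistic, and was not estimated directly. The median change of all genes was 0.03. Counts of list members below are to be read against the shares of all genes, 22% higher and 11.4% lower. The range was wider upwards, with 371 genes over 3 and 133 genes under -3. All 6 embryos of 72 h lay above all 6 of 48 h for 2316 genes (25.9%) and below them for 2028 (22.7%), and 1707 of the genes that rose and 866 of those that fell were among these. Of the called genes 1708 higher and 872 lower encode proteins. Scaling moved the balance of the calls. Library totals without the correction for composition shifted the median of all genes to 0.22 and gave 2323 higher and 769 lower, and upper-quartile scaling shifted it to 0.13 and gave 2136 and 877. Changes near a log2 of 1 are therefore best read against that shift. Counting is not stated to use the strand, and 465 of the genes that rose and 205 of those that fell share exonic sequence with a gene on the opposite strand and are uncertain for that reason. Among the genes named below these are CYP49A1, Fas3, Grd, LOC100576568, LOC100576700, LOC409740, LOC410296, LOC411049, LOC411065, LOC413021, LOC551454, LOC552193, LOC552811, LOC725364, LOC725616, LOC726124, LOC726151, RpL40, Ts, Wnt5, cad and gt. The plot of called members by list shows how unevenly these changes fell over functions.

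**Figure D1:**
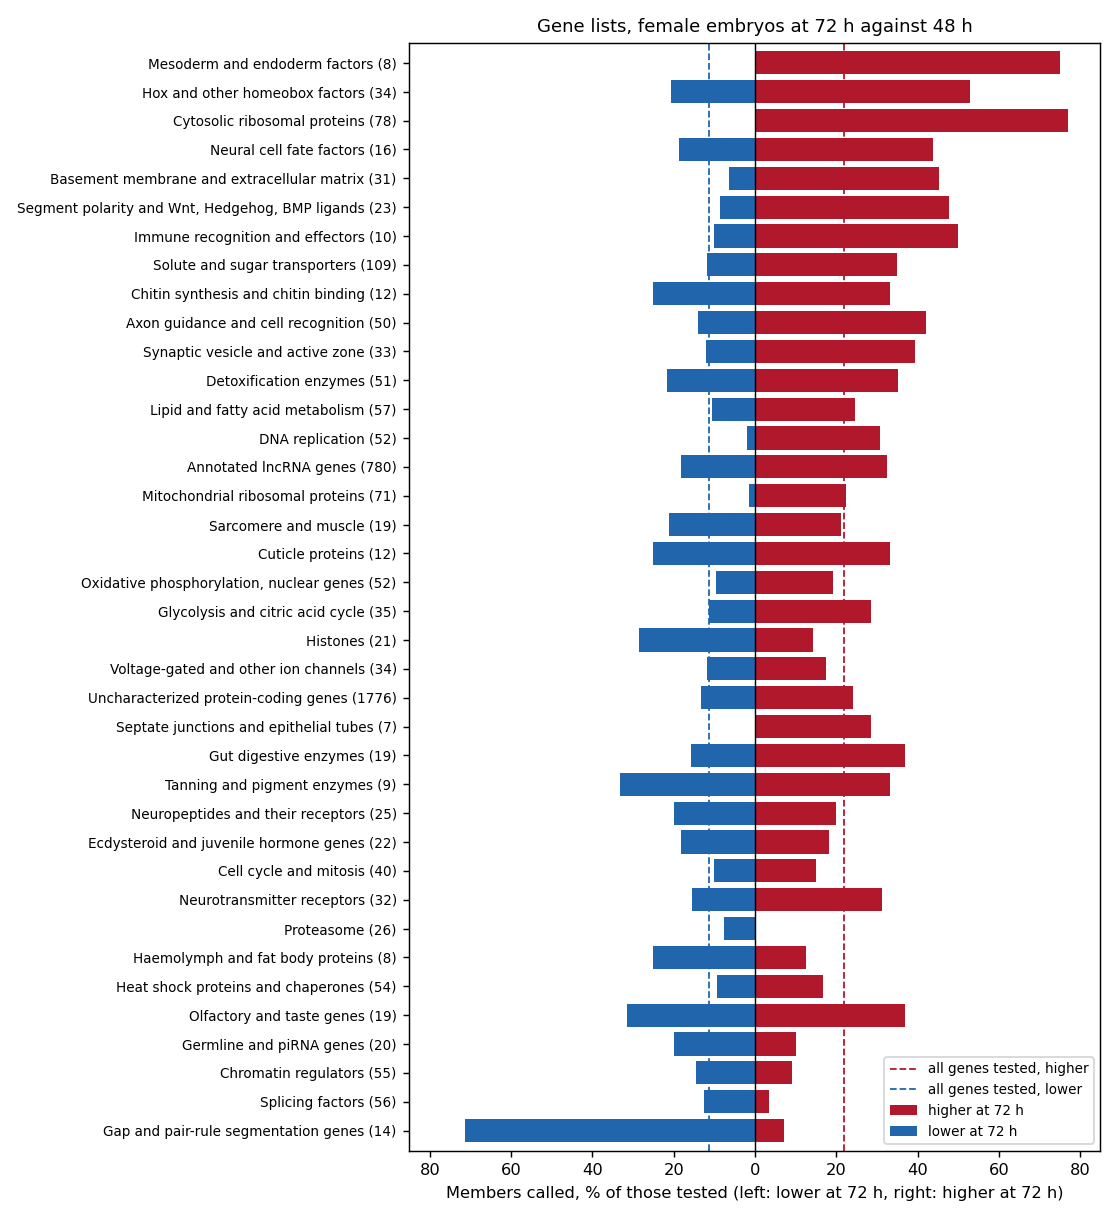
Share of tested members of each gene list (number tested in parentheses) called higher (red, right) or lower (blue, left) at 72 h than at 48 h in female embryos, in percent, with dashed lines at 22% and 11.4%, the shares over all genes. Lists run by their median log2 fold change, from mesoderm and endoderm factors (2.30) at the top to gap and pair-rule genes (-2.46) at the bottom.

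Most genes of early segmentation were lower at 72 h. Of 14 tested gap and pair-rule genes 10 fell and 1 rose, with a median log2 fold change of -2.46 against 0.03 over all genes. Giant (gt), a gap gene, had 14.6, 42.8 and 77.9 CPM at 72 h, against 524, 833 and 1065 CPM at 48 h, and all 6 embryos of 72 h lay below all 6 of 48 h (log2 fold change -4.27 ± 0.20, adjusted p = 1.4e-10). The caudal gene (cad), which in insects specifies the posterior of the embryo, had 10.3, 11.6 and 27.8 CPM at 72 h, against 369.8, 417 and 495 CPM at 48 h. Its 72 h values lay together except for the highest, that of queen 1 replicate 15, and it fell by 4.94 on the log2 scale. Orthodenticle 1 (otd1), a factor of the anterior head, was close to 1 CPM in every 72 h embryo, with 0.887, 1.07 and 1.35 CPM, against 24.1, 32.3 and 41.1 CPM at 48 h (-4.84 ± 0.19).

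The pair-rule genes eve (even-skipped) and LOC725053 (odd-skipped-like), both picked after their values were seen, both fell. The gene eve had 6.89, 12.4 and 87.7 CPM at 72 h, against 217, 243 and 333 CPM at 48 h (-3.70 ± 0.51). In the 5 other 72 h embryos it did not pass 13.2 CPM, and the highest value was again that of queen 1 replicate 15, without which the log2 fold change was -4.59. LOC725053 had 2.34, 8.8 and 22.4 CPM at 72 h, against 144, 184 and 251 CPM at 48 h (-4.24 ± 0.35), with no overlap. A further transcription factor gene, LOC726124, annotated as run-like, had 17.1, 19.1 and 74.6 CPM at 72 h, against 252, 449 and 683 CPM at 48 h (-4.05 ± 0.37). The groups did not overlap. Kr (Krüppel), a gap gene that also acts in later organs of Drosophila, was not called, and its groups overlapped, with 135, 339 and 642 CPM at 72 h, against 457, 728 and 812 CPM at 48 h. The one member that rose was ems (empty spiracles), a homeobox factor of the head and tracheal openings, which had 43.4, 108 and 188 CPM at 72 h, against 1.15, 1.36 and 7.84 CPM at 48 h (5.21 ± 0.37).

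Among 34 tested Hox and other homeobox genes 18 rose (52.9%) and 7 fell (20.6%), with a median of 1.42. The changes differed along the row of Hox genes. Abd-A (abdominal-A), which specifies abdominal segments, was nearly absent at 48 h and among the most changed genes of all. It had 343, 404 and 749 CPM at 72 h, against 0, 0.448 and 1.19 CPM at 48 h (log2 fold change 9.84 ± 0.33, adjusted p = 6.3e-12), so that the lowest 72 h embryo was far above the highest at 48 h. Ubx, Antp, Scr and lab were picked after their values were seen, to extend the row, and other Hox genes are not given here. Ubx (ultrabithorax), which acts in the posterior thorax and anterior abdomen, had 89, 125 and 169 CPM at 72 h, against 1.5, 5.41 and 11.2 CPM at 48 h (4.51 ± 0.23), with no overlap. Antp (antennapedia), a gene of the thorax, had 38.5, 41 and 50.5 CPM at 72 h, against 2.73, 4.47 and 25.6 CPM at 48 h (2.32 ± 0.40). Its 72 h values were tight, and at 48 h the highest embryos were both daughters of queen 2. Scr (sex combs reduced), of the labial and first thoracic segments, was not called, with 30.4, 40.2 and 62.9 CPM at 72 h and 32, 37.9 and 62.6 CPM at 48 h (-0.04 ± 0.16), and the groups overlapped throughout.

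Dfd (deformed), which patterns mandibular and maxillary segments, went against the posterior genes. It had 60.5, 67.3 and 81.5 CPM at 72 h, against 306, 587 and 1052 CPM at 48 h and fell by 3.19 ± 0.23 (adjusted p = 1e-08), and every 72 h embryo lay below every 48 h embryo. The gene lab (labial), the most anterior of the row, had 15.8, 21.3 and 29.3 CPM at 72 h, against 0, 0.909 and 1.28 CPM at 48 h (4.67 ± 0.31), so that it rose without overlap and was near 0 at 48 h. At 72 h, by medians, Abd-A was thus the most abundant of these 6 genes in CPM, followed by Ubx and Dfd, with Antp and Scr at a similar level and lab lowest. These CPM are not corrected for gene length. The homeobox gene Msx, also picked after its values were seen, had 4.42, 8.86 and 10.7 CPM at 72 h, and 2 counts in all among the 48 h embryos, a ratio of 143 with a 95% counting interval of 39.4 to 1189 that covers counting error only.

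**Figure D2:**
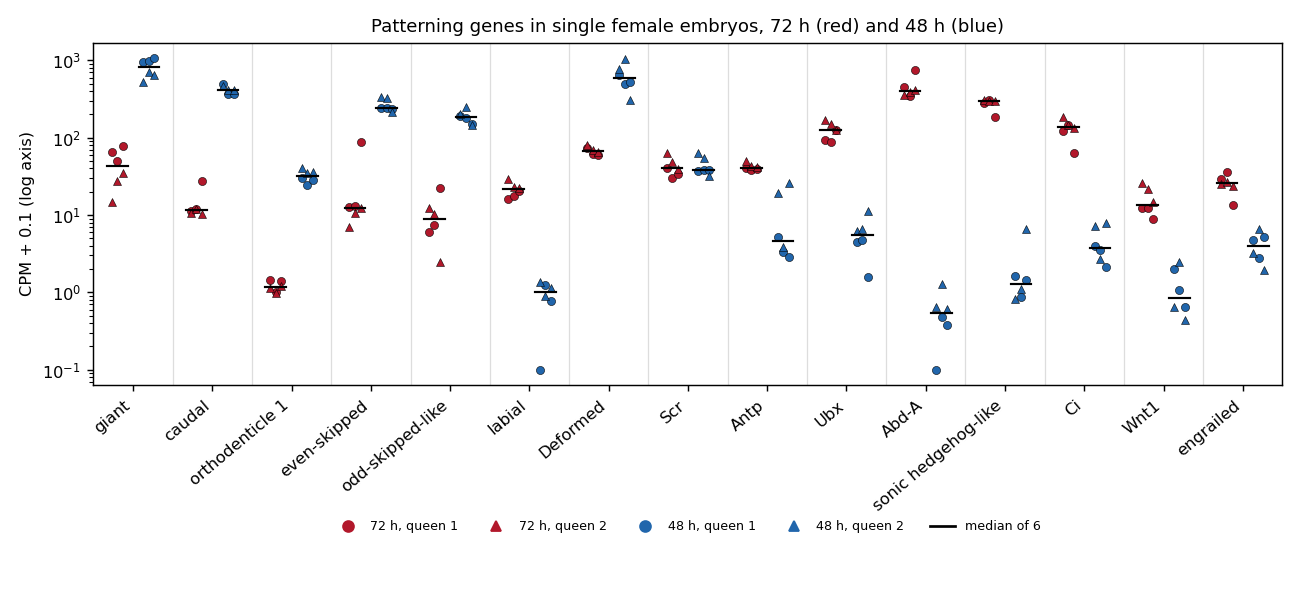
CPM of 15 patterning genes (0.1 added, log axis) in each female embryo, 72 h in red to the left of 48 h in blue, circles for queen 1 and triangles for queen 2, with a black bar at the median of 6. Of the genes drawn, giant, caudal, orthodenticle 1, even-skipped, odd-skipped-like and Deformed lie lower at 72 h, Scr values overlap, and Abd-A medians are 404 CPM at 72 h and 0.448 CPM at 48 h.

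Of 23 tested segment polarity, Wnt, Hedgehog and BMP genes 11 rose, 2 fell and 10 were not called (median 0.66). Without queen 1 replicate 15 of 72 h and queen 2 replicate 30 of 48 h together the median was 0.95. Both were chosen after seeing the data as nearest to the other time, so that leaving them out tends to widen the change. Both annotated Hedgehog ligands were among those that rose most. LOC102655561, sonic hedgehog-like, had 187, 298 and 309.5 CPM at 72 h, against 0.73, 1.18 and 6.48 CPM at 48 h (7.12 ± 0.33, adjusted p = 1.3e-10). The highest 48 h value was that of queen 2 replicate 30, the other 5 did not pass 1.53 CPM, and without it the log2 fold change was 7.94. LOC726929, hedgehog-like, had 36.8, 68.8 and 125 CPM at 72 h, against 0.548, 0.891 and 1.39 CPM at 48 h (6.12 ± 0.25). Ci (cubitus interruptus), the transcription factor at the end of the Hedgehog pathway, had 64.1, 138 and 185 CPM at 72 h, against 2.05, 3.64 and 7.84 CPM at 48 h (4.91 ± 0.26). LOC100576449, patched-like, encodes the Hedgehog receptor and had 301, 358 and 541 CPM at 72 h, against 101, 153 and 182 CPM at 48 h (1.35 ± 0.12), a smaller change at a level already of at least 101 CPM at 48 h. Thus ligand, receptor and factor of 1 pathway were each higher in all 72 h embryos than in any 48 h embryo.

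En (engrailed), the factor of the posterior compartment of each segment, and Wnt1, the ligand of the neighbouring cells, were picked after their values were seen. En had 13.6, 26 and 36.4 CPM at 72 h, against 1.87, 3.85 and 6.56 CPM at 48 h (2.70 ± 0.29). Wnt1 had 8.83, 13.5 and 25.5 CPM at 72 h, against 0.341, 0.755 and 2.39 CPM at 48 h (3.80 ± 0.38). Neither gene's groups overlapped. In contrast, Wnt5, a ligand with a role in axon guidance in Drosophila, fell. It had 7.41, 8.21 and 11.3 CPM at 72 h, against 25.9, 46.4 and 57.9 CPM at 48 h (-2.36 ± 0.19).

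Of 8 tested mesoderm and endoderm factors 6 rose and none fell (median 2.30). Six4, a homeobox factor of mesodermal organs in Drosophila, had 12.9, 26.3 and 41 CPM at 72 h, against 0, 0.0994 and 0.365 CPM at 48 h (7.35 ± 0.44, adjusted p = 1.7e-09), with 5 counts in all at 48 h. The gene eya (eyes absent), the partner of this homeobox family, had 68.6, 109.5 and 126 CPM at 72 h, against 10.2, 11.6 and 12 CPM at 48 h (3.22 ± 0.14), so that both partners rose without overlap. The gene pnr, for a GATA factor that in Drosophila acts in heart and dorsal ectoderm, had 6.54, 35.9 and 52.4 CPM at 72 h, against 1.5, 2.44 and 3.78 CPM at 48 h (3.72 ± 0.36). Its lowest 72 h value belonged to queen 1 replicate 15, and the next lowest was 33.6 CPM. Mef2, the myocyte enhancer factor that drives muscle genes, was not called, with 57.4, 65.4 and 84.4 CPM at 72 h and 64.8, 74.5 and 91.4 CPM at 48 h.

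Of 19 tested sarcomere genes 4 rose (21.1%, near the 22% of all genes) and 4 fell (21.1%, beside 11.4% of all genes). The median was 0.22, and -0.01 without queen 1 replicate 7 of 48 h. TpnCI (troponin C type I), the calcium sensor of the thin filament, had 232, 358 and 409.9 CPM at 72 h, against 26.2, 34 and 47.7 CPM at 48 h (3.30 ± 0.15). LOC725364 (flightin-like), a thick filament protein of flight muscle in Drosophila, had 17.5, 31.6 and 49.8 CPM at 72 h, against 0.546, 1.26 and 2.22 CPM at 48 h (4.55 ± 0.32). Both rose without overlap, as did Mhc1, a myosin heavy chain, which had 31.9, 34.7 and 45.5 CPM at 72 h, against 7.92, 11.2 and 19 CPM at 48 h (1.62 ± 0.16). The more abundant Mhc2 was not called, with 299.98, 377 and 429.8 CPM at 72 h and 453, 531 and 557 CPM at 48 h (-0.46 ± 0.09), and its 6 embryos of 72 h all lay below those of 48 h. In contrast, tmod (tropomodulin), which caps actin filaments, fell and had 149.7, 165 and 194 CPM at 72 h, against 407, 476 and 554 CPM at 48 h (-1.5 ± 0.10). The muscle genes named here thus differed in direction.

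Of 16 tested genes of neural cell fate 7 rose (43.8%) and 3 fell (18.8%), with a median of 0.80. LOC100576700, neurogenin-3-like, of a family of proneural factors, had 46.3, 55.7 and 72.6 CPM at 72 h, against 2.9, 3.36 and 4.97 CPM at 48 h (4.02 ± 0.16, adjusted p = 2.3e-11). N (Notch), the receptor that selects neural precursors among neighbours, had 108, 175 and 271 CPM at 72 h, against 15.3, 35.3 and 52 CPM at 48 h (2.45 ± 0.21). LOC100577472, ISL-1-like, of a family that specifies motor neurons, had 72.2, 123 and 178 CPM at 72 h, against 14.3, 34 and 54.9 CPM at 48 h (1.85 ± 0.26). These 3 genes rose without overlap, while 3 others fell. LOC100578067, of the enhancer of split group that answers to Notch, had 2.13, 4.52 and 7.58 CPM at 72 h, against 37.3, 51.4 and 75.5 CPM at 48 h (-3.62 ± 0.29). The gene ap (apterous), a factor of interneurons and appendages in Drosophila, had 2.62, 8.16 and 10.9 CPM at 72 h, against 31.5, 42.5 and 56.9 CPM at 48 h (-2.55 ± 0.23). LOC408411, SOX-2-like, of a family expressed in neural precursors, had 117, 131 and 183 CPM at 72 h, against 231, 321 and 536 CPM at 48 h (-1.38 ± 0.17).

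Genes of axon guidance and cell recognition rose in 21 of 50 cases (42.0%), beside 22% of all genes, and fell in 7 (median 0.51). LOC726017 (lachesin-like), of a family of surface proteins on neurons and tracheae, had 57.1, 105 and 122 CPM at 72 h, against 0.573, 2.48 and 4.43 CPM at 48 h (5.22 ± 0.27). Fas3 (fasciclin 3), a homophilic adhesion protein, had 137, 160.2 and 250.1 CPM at 72 h, against 7.23, 9.999 and 13.9 CPM at 48 h (4.11 ± 0.15). Fas1 (fasciclin 1), an unrelated adhesion protein of axons, went the other way and had 161, 208 and 269 CPM at 72 h, against 621, 684 and 805 CPM at 48 h (-1.72 ± 0.11), and the groups did not overlap in either gene. Con (connectin), an adhesion protein of muscles and motor neurons in Drosophila, had 56.6, 64.8 and 84.4 CPM at 72 h, against 273, 364 and 433 CPM at 48 h (-2.42 ± 0.12).

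Of 33 tested synaptic genes 13 rose (39.4%) and 4 fell (12.1%), with a median of 0.34. The enzymes and carriers of acetylcholine, the main excitatory transmitter of the insect nervous system, did not move as one. AChE-1 (acetylcholinesterase 1) had 36.8, 92.3 and 200.1 CPM at 72 h, against 2.48, 4.65 and 9.94 CPM at 48 h (4.43 ± 0.24). AChE-2 had 4.86, 6.59 and 8.27 CPM at 72 h, against 22.5, 29.3 and 39.4 CPM at 48 h (-2.16 ± 0.20), so that the 2 acetylcholinesterases changed in opposite directions and neither overlapped. LOC408935, the high-affinity choline transporter 1, had 14.4, 35.8 and 43.7 CPM at 72 h, against 0.573, 1.03 and 2.39 CPM at 48 h (4.72 ± 0.34). LOC409924 (synaptic vesicle glycoprotein 2B-like) had 38.4, 143 and 271 CPM at 72 h, against 2.68, 5.17 and 7.56 CPM at 48 h (4.91 ± 0.34), a gene whose 72 h embryos varied widely while all were above 48 h.

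Among 32 tested neurotransmitter receptors 10 rose and 5 fell, although the list's median was -0.03 (-0.1 to 0.18 with 1 embryo left out). LOC411049, a kainate-type glutamate receptor subunit, had 95.7, 152 and 250.3 CPM at 72 h, against 6.35, 8.99 and 13.5 CPM at 48 h (4.16 ± 0.15). Grd, a GABA-gated channel subunit, had 52.4, 75.2 and 85 CPM at 72 h, against 8.55, 10.2 and 12.3 CPM at 48 h (2.76 ± 0.16). Both rose without overlap. The gene nAChRa3, a nicotinic acetylcholine receptor subunit, had 26.1 CPM at 72 h and 3.34 CPM at 48 h by medians (2.63 ± 0.30), and TyrR, a tyramine receptor, had medians of 3.35 CPM at 72 h and 21.3 CPM at 48 h (-2.56 ± 0.26). Of 34 ion channel genes 6 rose and 4 fell, close to the share of all genes. The pair with the highest fold change were voltage-gated calcium channel subunits, LOC551454 (alpha-2/delta, 3.68 ± 0.31) and LOC551883 (T-type alpha, 3.24 ± 0.28), which had 29.9 and 31.5 CPM at 72 h by medians, against 1.85 and 3.54 CPM at 48 h. Of 25 neuropeptide genes and receptors 5 rose and 5 fell. LOC725616 (prohormone-1) had 14.5, 20.8 and 25 CPM at 72 h, against 0.573, 1.36 and 2.01 CPM at 48 h (3.94 ± 0.27), whereas the more abundant NPF (neuropeptide F), a feeding peptide in insects, was not called, with medians of 258 CPM at 72 h and 192 CPM at 48 h.

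**Figure D3:**
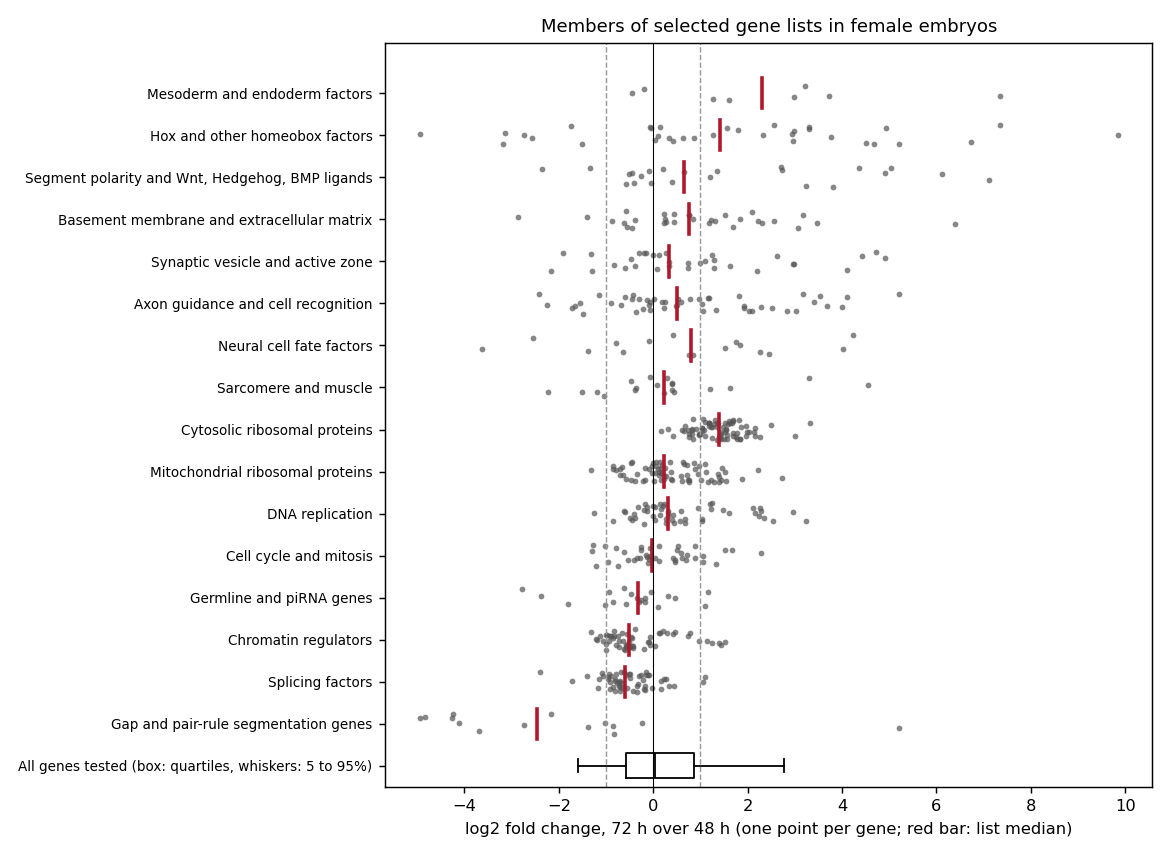
Log2 fold change, 72 h over 48 h, of every tested member (grey points) of 16 gene lists, with the list median as a red bar, dashed lines at the threshold of 1 and -1, and a box for all 8942 genes (quartiles, whiskers from 5 to 95%). Cytosolic ribosomal proteins lie together around 1.39, whereas homeobox and axon guidance genes spread widely to both sides.

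Basement membrane and matrix genes rose in 14 of 31 cases (45.2%) and fell in 2 (median 0.77). LOC408552, a collagen IV alpha chain, the network-forming collagen of basement membranes, had 6.54, 19.6 and 27.9 CPM at 72 h, against 0, 0.137 and 0.511 CPM at 48 h (6.40 ± 0.53), and 7 counts in all were found at 48 h. LOC412890, an ADAMTS-type matrix protease, had 27.7, 49 and 71 CPM at 72 h, against 2.59, 4.85 and 15.3 CPM at 48 h (3.06 ± 0.32). Its highest 48 h value, in queen 1 replicate 15, stood apart from the 5 others, which did not pass 5.39 CPM. LOC413021 (papilin-like), a matrix glycoprotein, had 1.8, 13.1 and 22.4 CPM at 72 h, against 1.5, 2.1 and 2.5 CPM at 48 h (2.56 ± 0.40) and overlapped between groups, with the lowest 72 h value in queen 1 replicate 15. The laminin gene LanB1 had 131, 170.00 and 216 CPM at 72 h, against 119.7, 142 and 181 CPM at 48 h, and was not called. LOC100577456 (fibrillin-2-like) had 2.29, 3.66 and 5.4 CPM at 72 h, against 18.9, 28.3 and 37.1 CPM at 48 h (-2.86 ± 0.23).

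Most cuticle genes had few or no counts at either time. Of 47 annotated cuticle proteins 12 had enough counts to test, of which 4 rose and 3 fell. Twdl2, a tweedle-family cuticle protein, had 28.4, 40.4 and 55.9 CPM at 72 h, against 2.12, 2.95 and 4.38 CPM at 48 h (3.70 ± 0.22). The most abundant, CPF1, had 114, 188 and 292 CPM at 72 h, against 303, 478 and 528 CPM at 48 h (-1.06 ± 0.22), and it was no longer called without queen 1 replicate 15 of 72 h (-0.92) or without queen 2 replicate 30 of 48 h (-0.97). Of 12 chitin genes 4 rose and 3 fell, and 1 fell without queen 1 replicate 15 or queen 2 replicate 25 of 72 h. The chitinase LOC413481 had 18.4, 24.8 and 37.5 CPM at 72 h, against 0.597, 4.1 and 8.41 CPM at 48 h (2.65 ± 0.37). Enzymes of tanning and pigment rose and fell in equal number, 3 each of 9. Y-x1, of the yellow family, fell and had 2.53, 3.53 and 4.13 CPM at 72 h, against 67.1, 121 and 142 CPM at 48 h (-5.01 ± 0.17, adjusted p = 9.1e-12). LOC552811 (laccase-5-like), an oxidase of the class that hardens cuticle, had 56.7, 62.8 and 87.7 CPM at 72 h, against 14, 17.4 and 22.7 CPM at 48 h (1.88 ± 0.16), and LOC410639, an aromatic amino acid decarboxylase that makes amines for tanning and signalling, had medians of 65.7 CPM at 72 h and 11 CPM at 48 h (2.27 ± 0.28). PPO, the phenoloxidase of melanin formation, fell to a median of 4.18 CPM at 72 h, against 12.2 CPM at 48 h (-1.51 ± 0.29). Of 7 genes of septate junctions and epithelial tubes 2 rose, among them verm (vermiform, a chitin deacetylase of the tracheal lumen in Drosophila), with medians of 7.51 CPM at 72 h and 2.08 CPM at 48 h (1.89 ± 0.30).

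Of 19 tested digestive enzymes 7 rose and 3 fell. LOC551268, a triacylglycerol lipase-like gene, had 4.74, 37.8 and 114 CPM at 72 h, against 0, 0.188 and 0.682 CPM at 48 h (7.49 ± 0.73). It had 8 counts in all at 48 h, and its 72 h values ranged widely, lowest in queen 1 replicate 15. LOC410451, a serine carboxypeptidase annotated from venom, had 49.6, 96.4 and 128 CPM at 72 h, against 11.1, 20.9 and 30.2 CPM at 48 h (2.15 ± 0.25). Of 8 tested haemolymph and fat body proteins 1 rose and 2 fell, counts that changed by 1 when queen 1 replicate 8, queen 2 replicate 18 or queen 2 replicate 30 of 48 h, or queen 1 replicate 15 or queen 2 replicate 29 of 72 h, was left out. Hex70c, a hexamerin, a storage protein of later stages, had 0.412, 1.52 and 3.24 CPM at 72 h, against 14.1, 20.2 and 22.9 CPM at 48 h (-3.65 ± 0.30). A4, an apolipophorin-III-like lipid carrier, overlapped between groups, with medians of 26.1 CPM at 72 h and 10.1 CPM at 48 h (1.81 ± 0.41), and in queen 1 alone it was not called (1.16, adjusted p = 0.053).

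Of 10 tested immune genes 5 rose and 1 fell, and without queen 1 replicate 4 or replicate 15 of 72 h 3 fell, and without queen 2 replicate 30 of 48 h 2 fell. Lys-3 (lysozyme 3), which cleaves bacterial cell walls, had 267, 345 and 383 CPM at 72 h, against 67.7, 104 and 145 CPM at 48 h (1.73 ± 0.17). B-gluc1, a recognition protein for fungal glucan, had 1.53, 3.67 and 7.53 CPM at 72 h, against 7.31, 16 and 21.8 CPM at 48 h (-2.01 ± 0.36), with groups that overlapped slightly. Only 19 of 133 annotated olfactory and taste genes had enough counts to test, of which 7 rose and 6 fell. Chemosensory proteins, small carriers of hydrophobic molecules, were on both sides. LOC751767 (chemosensory protein 5) had 119, 231 and 489.7 CPM at 72 h, against 23.1, 34.4 and 42.8 CPM at 48 h (2.93 ± 0.30), and CSP6 had medians of 48.1 CPM at 72 h and 4.11 CPM at 48 h (3.63 ± 0.24). CSP3 fell and had 9.88, 16 and 21.8 CPM at 72 h, against 172, 195 and 231 CPM at 48 h (-3.67 ± 0.17). The odorant receptor gene Or160 had 37.6, 50.02 and 77.5 CPM at 72 h, against 139.9, 236 and 311 CPM at 48 h (-2.14 ± 0.18), with no overlap.

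Of 51 tested detoxification enzymes 18 rose (35.3%) and 11 fell (21.6%), with a median of 0.34. All 79 genes of the list, tested or not, summed to 3832 ± 329.8 CPM at 72 h and 1939 ± 89.8 CPM at 48 h. LOC413043, a UDP-glycosyltransferase, had 37.5, 255 and 448 CPM at 72 h, against 0, 0 and 0.41 CPM at 48 h (10.59 ± 0.75), with 5 counts in all at 48 h, and without queen 1 replicate 15 of 48 h the log2 fold change was 11.43. CYP6AS17, a cytochrome P450 of a family that metabolizes plant compounds in bees, had 316, 555 and 699 CPM at 72 h, against 8.03, 11.1 and 16 CPM at 48 h (5.55 ± 0.21, adjusted p = 1.5e-11), with no overlap. CYP49A1, a mitochondrial-type P450, had 1.03, 2.35 and 3.16 CPM at 72 h, against 19.5, 26.9 and 44.7 CPM at 48 h (-3.72 ± 0.26). Solute and sugar transporters, 109 tested, rose in 38 cases (34.9%) and fell in 13 (11.9%), with a median of 0.61. The sum over all 144 genes of the list was level, with 5696 ± 247 CPM at 72 h and 5659.6 ± 239 CPM at 48 h. Amino acid carriers lay at both ends. LOC410296 (B(0,+)-type) had 39.6, 71.7 and 183 CPM at 72 h, against 2.37, 4 and 4.62 CPM at 48 h (4.70 ± 0.27), whereas LOC552193 (proton-coupled type 4) had 1.92, 2.67 and 3.98 CPM at 72 h, against 39.9, 68.8 and 100.2 CPM at 48 h (-4.66 ± 0.24). LOC551263, a monocarboxylate transporter-like gene, fell to a median of 31.1 CPM at 72 h, against 527 CPM at 48 h (-4.07 ± 0.16). LOC413575, a carrier of trehalose, the blood sugar of insects, rose to a median of 49.5 CPM at 72 h, against 4.84 CPM at 48 h (3.57 ± 0.38).

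Of 57 tested genes of lipid metabolism 14 rose (24.6%) and 6 fell (10.5%), shares near those of all genes, with a median of 0.34. Lsd-1, a coat protein of lipid droplets, had 10.3, 22.1 and 45.1 CPM at 72 h, against 183, 229.7 and 268 CPM at 48 h (-3.23 ± 0.21). LOC552205, an elongase of very long fatty acids, had 1.38, 2.96 and 4.58 CPM at 72 h, against 36.5, 46.9 and 63.7 CPM at 48 h (-4.01 ± 0.25). Both fell without overlap. In the other direction LOC100577192, a 3-hydroxyacyl-CoA dehydratase of the same elongation cycle, had 120.2, 158 and 179 CPM at 72 h, against 10.5, 15.7 and 18.1 CPM at 48 h (3.38 ± 0.15). Rfabg, a gene of the lipid list for the lipophorin-type carrier of lipids in haemolymph, had 9.98, 64 and 176 CPM at 72 h, against 2.46, 2.71 and 6.17 CPM at 48 h (4.42 ± 0.46), with the lowest 72 h value in queen 1 replicate 15 and no overlap. Genes of glycolysis and the citric acid cycle rose in 10 of 35 cases (28.6%) and fell in 4 (11.4%). LOC411188, lactate dehydrogenase, had 13.1, 20.7 and 35.6 CPM at 72 h, against 0.796, 1.87 and 3.07 CPM at 48 h (3.52 ± 0.31). The largest fall of the list was that of Mdh (malate dehydrogenase), which had 14.4, 24.5 and 27.4 CPM at 72 h, against 234, 302 and 325 CPM at 48 h (-3.69 ± 0.15, adjusted p = 2.5e-11). Of 52 nuclear genes of oxidative phosphorylation 10 rose (19.2%) and 5 fell (9.62%), again near the shares of all genes. ATP5G2, the ring subunit of ATP synthase, had 1348, 1803 and 2165 CPM at 72 h, against 135, 138 and 183 CPM at 48 h (3.60 ± 0.13), so that its 6 embryos of 72 h were tightly grouped far above 48 h.

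Cytosolic ribosomal proteins differed little among themselves in direction. Of 78 tested genes 60 rose and none fell, and for 73 of them all 6 embryos of 72 h lay above all 6 of 48 h, against 25.9% of all genes. The median log2 fold change was 1.39, the lowest of the list 0.17 and the highest 3.33. All 79 genes of the list together took 15.1% ± 0.92 of the counts at 72 h and 5.27% ± 0.67 at 48 h (SD, n = 6 each). No 72 h embryo was under 13.7% and no 48 h embryo over 6.56%, that of queen 2 replicate 30. LOC726171 (60S ribosomal protein L11-like) had 3143, 3249 and 3778 CPM at 72 h, against 275, 318 and 456 CPM at 48 h (3.33 ± 0.12, adjusted p = 1e-11). RpL10Ab had 955, 1072 and 1381 CPM at 72 h, against 104, 125 and 251 CPM at 48 h (3.01 ± 0.15), and RpL23 had 955, 1073 and 1205 CPM at 72 h, against 149, 190.4 and 229.9 CPM at 48 h (2.49 ± 0.10). RpL40, whose product is joined to ubiquitin, was not called at a fold change of 0.83 ± 0.15, and its groups did not overlap. Mitochondrial ribosomal proteins, encoded in the nucleus as well, had a lower median of 0.24, with 16 of 71 higher (22.5%, near the share of all genes) and 1 lower. Among them mRpS12 had 206, 229 and 275 CPM at 72 h, against 58, 61.7 and 73.1 CPM at 48 h (1.88 ± 0.09), while LOC726151 (39S L49-like) had 276, 346 and 419 CPM at 72 h, against 635, 901 and 998 CPM at 48 h (-1.32 ± 0.10).

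Of 52 tested genes of DNA replication 16 rose (30.8%) and 1 fell (1.92%), with a median of 0.31. Enzymes of thymidine nucleotide supply were among those that rose. Ts (thymidylate synthase) had 71, 93.6 and 117 CPM at 72 h, against 7.33, 9.76 and 13.3 CPM at 48 h (3.24 ± 0.16), and LOC552148 (thymidylate kinase-like) had 16.9, 29.97 and 33 CPM at 72 h, against 1.79, 3.44 and 5.2 CPM at 48 h (2.96 ± 0.21). The gene mus209, for the sliding clamp PCNA, was not called, with medians of 306 CPM at 72 h and 339.8 CPM at 48 h. Pole3, a subunit of DNA polymerase epsilon, fell (-1.26 ± 0.09), with medians of 44.7 CPM at 72 h and 107 CPM at 48 h. Of 40 cell cycle genes 6 rose and 4 fell, with a median of -0.02 that was 0.17 with library totals and -0.05 to 0.04 with 1 embryo left out. CycD (cyclin D) and Cdk4, the cyclin and kinase that start the cycle in G1, rose together. CycD had 69.2, 123 and 134 CPM at 72 h, against 18.9, 23.5 and 28.7 CPM at 48 h (2.28 ± 0.16). Cdk4 had 27.7, 34.2 and 71.1 CPM at 72 h, against 11.3, 14 and 17.4 CPM at 48 h (1.52 ± 0.20). The gene wee, for the kinase that holds cells before mitosis, had 116, 207 and 251 CPM at 72 h, against 391, 461 and 537 CPM at 48 h (-1.21 ± 0.15).

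Histone genes differed in direction, with 3 of 21 tested higher (14.3%) and 6 lower (28.6%). The H2B gene LOC726487 had 14.3, 19.98 and 74.4 CPM at 72 h, against 1511, 2289 and 2721 CPM at 48 h (-6.31 ± 0.36), and again queen 1 replicate 15 was the highest of the 72 h embryos. The H2A-like gene LOC726468 had 82.7, 118 and 162 CPM at 72 h, against 735, 1121 and 1181 CPM at 48 h (-3.10 ± 0.15), whereas the H2A-like gene LOC725308 had 237, 408 and 627 CPM at 72 h, against 46.4, 57.6 and 87.8 CPM at 48 h (2.86 ± 0.23). LOC726692, the replication-independent H3.3-like histone and the most abundant of the list, was not called, with 4007, 5127 and 7080.5 CPM at 72 h and 3784, 4642 and 6968 CPM at 48 h. Per the methods, reads without a single best place in the genome were left out, so that near-identical histone copies may be undercounted. Of 55 chromatin regulators 5 rose and 8 fell (median -0.50), with 5 lower without queen 1 replicate 7 of 48 h or without queen 1 replicate 15 or queen 2 replicate 29 of 72 h, and 2 lower with library totals. The gene pr-set7, for a histone H4 methyltransferase, had 76, 86.4 and 119.8 CPM at 72 h, against 180.4, 209.96 and 233 CPM at 48 h (-1.22 ± 0.09). Of 56 splicing factors 2 rose and 7 fell (median -0.60), and for 31 of them all 6 embryos of 72 h lay below all 6 of 48 h, against 22.7% of all genes. Bcas2, a core factor of the spliceosome, had 60.3, 74.5 and 85.1 CPM at 72 h, against 363, 395 and 445 CPM at 48 h (-2.41 ± 0.08).

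Of 20 tested germline and piRNA genes 4 fell and 2 rose (median -0.32). The gene mael (maelstrom), a factor of the piRNA pathway, had 129.8, 144 and 206 CPM at 72 h, against 582, 1107 and 1518 CPM at 48 h (-2.79 ± 0.20). The gene brat (brain tumor), a translational repressor, had 284, 316 and 367 CPM at 72 h, against 910.1, 1125 and 1271 CPM at 48 h (-1.80 ± 0.10). BicC (bicaudal C), an RNA-binding protein of the ovary and early embryo in Drosophila, had 10.8, 12.6 and 14.6 CPM at 72 h, against 44.1, 64 and 94.1 CPM at 48 h (-2.38 ± 0.17), so that none of these 3 overlapped. The 54 chaperone genes followed all genes more closely, with 9 higher and 5 lower. LOC724231, one of several small heat shock genes annotated as lethal(2)essential for life-like, had 22.9, 33.7 and 44.2 CPM at 72 h, against 0.682, 1.86 and 3 CPM at 48 h (4.17 ± 0.29). The stress-induced type LOC410620 (Hsp70Ab-like) fell to a median of 4.57 CPM at 72 h, against 22.8 CPM at 48 h (-2.05 ± 0.39). Hsp90 was not called, with medians of 894 CPM at 72 h and 1085 CPM at 48 h. None of 26 proteasome genes rose and 2 fell. Of 22 hormone genes 4 rose (18.2%) and 4 fell (18.2%), and without queen 2 replicate 25 of 72 h 2 fell. The highest change of this list, 4.42, is that of Rfabg, which the lipid list holds as well. E74, a transcription factor gene induced by ecdysteroids, had 172, 223 and 426 CPM at 72 h, against 58.9, 71 and 172 CPM at 48 h (1.38 ± 0.31), with overlap, and it was not called within queen 2 (0.59). Ecr, the ecdysone receptor, was not called, with medians of 523 CPM at 72 h and 256 CPM at 48 h (0.87 ± 0.10).

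Of 1776 tested uncharacterized protein-coding genes 429 (24.2%) rose and 234 (13.2%) fell, near the shares of all genes (22% and 11.4%). Of 780 tested annotated lncRNA genes 253 (32.4%) rose and 141 (18.1%) fell, both above those shares. By overlap there was no such excess in both directions. All 6 embryos of 72 h lay above all 6 of 48 h for 212 of the 780, against 25.9% of all genes. They lay below for 105, against 22.7% of all genes. The gene with the highest log2 fold change of all that met the naming rule was the lncRNA LOC102655797. It had 6.54, 78.2 and 113 CPM at 72 h and no count in any 48 h embryo, which makes it at least 808-fold higher, against a floor of 3 counts over the 48 h group. The lowest of its 72 h embryos was queen 1 replicate 15. A further lncRNA gene, LOC102656112, had 16.3, 31 and 46.1 CPM at 72 h, against 0, 0.0683 and 0.341 CPM at 48 h (7.83 ± 0.44, and 8.52 without queen 2 replicate 30 of 48 h). Of uncharacterized proteins, LOC411065 had 40.6, 86.3 and 103 CPM at 72 h, against 0.365, 0.455 and 0.956 CPM at 48 h (7.03 ± 0.27), and LOC724644 had 1.8, 20.6 and 81.7 CPM at 72 h, against 0, 0 and 0.41 CPM at 48 h (7.40 ± 0.89, and 8.52 without queen 1 replicate 15 of 48 h). LOC724644 had 5 counts and LOC102656112 4 counts in all at 48 h. A phosphatase, a peptidase and a lipid carrier complete the list of 12 with the highest fold change. LOC551405 (4-nitrophenylphosphatase-like), a phosphatase, had 39.4, 138 and 157 CPM at 72 h, against 0, 0.0852 and 0.398 CPM at 48 h (9.50 ± 0.47), with 5 counts in all at 48 h. Nep2 (neprilysin 2), a peptidase that degrades signalling peptides, had 76.8, 99.7 and 137 CPM at 72 h, against 0.382, 0.563 and 1.19 CPM at 48 h (7.28 ± 0.18). LOC552447 (clavesin-2-like), of a family of lipid-binding carriers, had 16, 57.7 and 101 CPM at 72 h and 2 counts in all at 48 h, a ratio of 1046 with a 95% counting interval of 289 to 8638, which covers counting error only and not the spread between embryos. Its log2 fold change was 9.57, and 10.20 without queen 1 replicate 8 of 48 h.

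The 12 genes with the lowest fold change under the same rule included LOC726487, the H2B gene above, and 11 others. LOC102654620, a lisH domain protein gene, had 0, 0.396 and 2.13 CPM at 72 h, against 376, 468 and 748 CPM at 48 h (-9.56 ± 0.33, and -10.20 without queen 1 replicate 15 of 72 h). The uncharacterized LOC100577147 had 0.253, 0.757 and 1.35 CPM at 72 h, against 232, 546 and 649 CPM at 48 h (-9.25 ± 0.31). LOC102653607, LOC100576568 and LOC100578468 are uncharacterized as well and fell, with log2 fold changes of -7.57, -6.39 and -6.06. Among these LOC100578468 had medians of 16.9 CPM at 72 h and 1205 CPM at 48 h, and LOC100576568 had 10.4, 14.7 and 115 CPM at 72 h, against 1858, 2108 and 2716 CPM at 48 h, with its highest 72 h value in queen 1 replicate 15 (-7.21 without it). Another clavesin-type gene, LOC409740 (clavesin-1-like), had 0.137, 0.789 and 1.21 CPM at 72 h, against 60.4, 132 and 202 CPM at 48 h (-7.30 ± 0.26), the reverse of LOC552447. LOC725766 (NF-kappa-B inhibitor cactus-like), of the family that in Drosophila holds Dorsal in the cytoplasm when the dorsoventral axis is set, had 22.7, 34.9 and 45 CPM at 72 h, against 1921, 2684 and 3308 CPM at 48 h (-6.26 ± 0.19, adjusted p = 4.7e-12). SCR-B2, a scavenger receptor of class B, had 6.38, 9.08 and 12.7 CPM at 72 h, against 250.2, 574 and 803 CPM at 48 h (-5.91 ± 0.29). Both were abundant at 48 h and kept a low level at 72 h. Sans, the orthologue of a scaffold protein of sensory cells, had 0.164, 1.19 and 3.8 CPM at 72 h, against 119, 271 and 311 CPM at 48 h (-7.16 ± 0.40, and -7.84 without queen 2 replicate 25 of 72 h). LOC102656356 (early growth response protein 1-A-like), a zinc finger factor, had 0, 0 and 0.818 CPM at 72 h, against 15.8, 22.6 and 27.8 CPM at 48 h (-6.90 ± 0.45, and -8.12 without queen 1 replicate 15 of 72 h). In each of these genes the 72 h embryos lay below all 48 h embryos, as the naming rule required. The lncRNA LOC102656255 had 0.172, 0.89 and 1.22 CPM at 72 h, against 29.3, 69.6 and 101 CPM at 48 h (-6.30 ± 0.33).

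Levels of different genes were compared per length, in the RPKM the authors deposited. At 72 h the 5 genes with the highest mean were the lncRNA LOC102655096 (18776 ± 2901 RPKM, SD, n = 6) and 4 ribosomal protein genes, namely LOC552272 (40S S23-like, 9012 ± 817), RpS30 (8819.8 ± 667), RpL40 (6004 ± 1110.0) and RpL37A (5887 ± 569). At 48 h LOC100578903 came first (29818 ± 3377), followed by LOC102655096 (17438 ± 2453), LOC102655058 (5886 ± 1083), LOC409681 (RWD domain protein, 4726 ± 669) and RpS30 (3400.4 ± 501). On the CPM scale LOC102655096 was not called (-0.17 ± 0.14), and its groups overlapped. The uncharacterized LOC100578903 had 5149, 10331 and 32669.5 CPM at 72 h, against 125846, 156990.0 and 174653 CPM at 48 h (-3.76 ± 0.36). LOC102655058 had 217, 258 and 455 CPM at 72 h, against 8022, 11999 and 13150.5 CPM at 48 h (-5.24 ± 0.19), and LOC409681 had 152, 188 and 361 CPM at 72 h, against 7312, 10109 and 11229 CPM at 48 h (-5.56 ± 0.22). In each of the 3 every 72 h embryo lay below every 48 h embryo. RpL37A and LOC552272 rose (2.27 ± 0.10 and 1.25 ± 0.12), as did RpS30 (1.09 ± 0.11).

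Within queen 1, 3 embryos against 3, 2026 genes were higher and 1085 lower at 72 h, and within queen 2 1922 and 1046. Of the genes that rose in both queens together 1948 of 1965 changed in that direction in each queen, as did 1010 of the 1023 that fell. When each queen was tested alone, 4 genes were called in opposite directions. Over 8858 genes with a change in both, the log2 fold changes of the queens had a Pearson r of 0.93, a description across genes, which are not independent replicates. Of 9461 genes tested for an interaction of queen and time 1 (0.0106%) was called, 735 had an unadjusted p under 0.05, and the Wald test of DESeq2 called 18. On simulated counts the edgeR test of this interaction recovered 65% of genes with a log2 difference of 1.5 and 91% of those with 3, so that smaller differences between queens could be missed. The called gene was LOC724225, the myosuppressin receptor, whose ligand is a peptide that slows visceral muscle in insects. It had 57.9, 73.6 and 101 CPM at 72 h, against 5.2, 15.1 and 29 CPM at 48 h in all, and rose by 3.70 on the log2 scale in queen 1 and by 1.38 in queen 2, a difference of -2.32 ± 0.30 (queen 2 minus queen 1, edgeR adjusted p = 0.013). That call was lost when any of 5 embryos was left out, namely queen 1 replicates 8 and 15 and queen 2 replicate 18 of 48 h and queen 2 replicates 25 and 29 of 72 h, with adjusted p of 0.051 to 0.10.

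**Figure D4:**
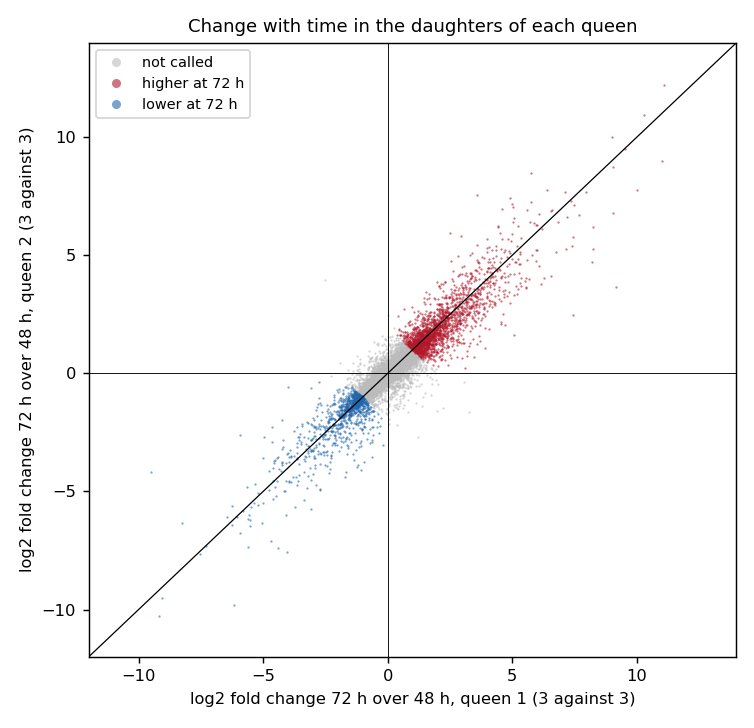
Log2 fold change, 72 h over 48 h, of each gene in the daughters of queen 2 (vertical) against those of queen 1 (horizontal), with genes called higher in red, called lower in blue and the others in grey, and a line of equal change. The points follow the line, with r = 0.93 over 8858 genes.

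Levels in 24 h females place these changes in time, as a description only, since the 48 h embryos would be shared by both steps. Medians at 24, 48 and 72 h are given in that order. Abd-A had 1.21, 0.448 and 404 CPM and LOC102655561 (sonic hedgehog-like) 5.27, 1.18 and 298 CPM, both low until 48 h. Dfd had 0.234, 587 and 67.3 CPM, a peak at 48 h, and gt had 384, 833 and 42.8 CPM. The gene cad had 1060.4, 417 and 11.6 CPM and mael 17599.5, 1107 and 144 CPM, highest at 24 h. Some genes that rose between 48 and 72 h were as high or higher at 24 h. CYP6AS17 had 652, 11.1 and 555 CPM, Lys-3 574, 104 and 345 CPM and nAChRa3 229, 3.34 and 26.1 CPM, and Syt1 had 27.2, 0.839 and 4.3 CPM, so that for these 4 genes 48 h was the lowest point. LOC726171 (L11-like) had 632, 318 and 3249 CPM, and RpL37A had 192, 678 and 3527 CPM.

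**Figure D5:**
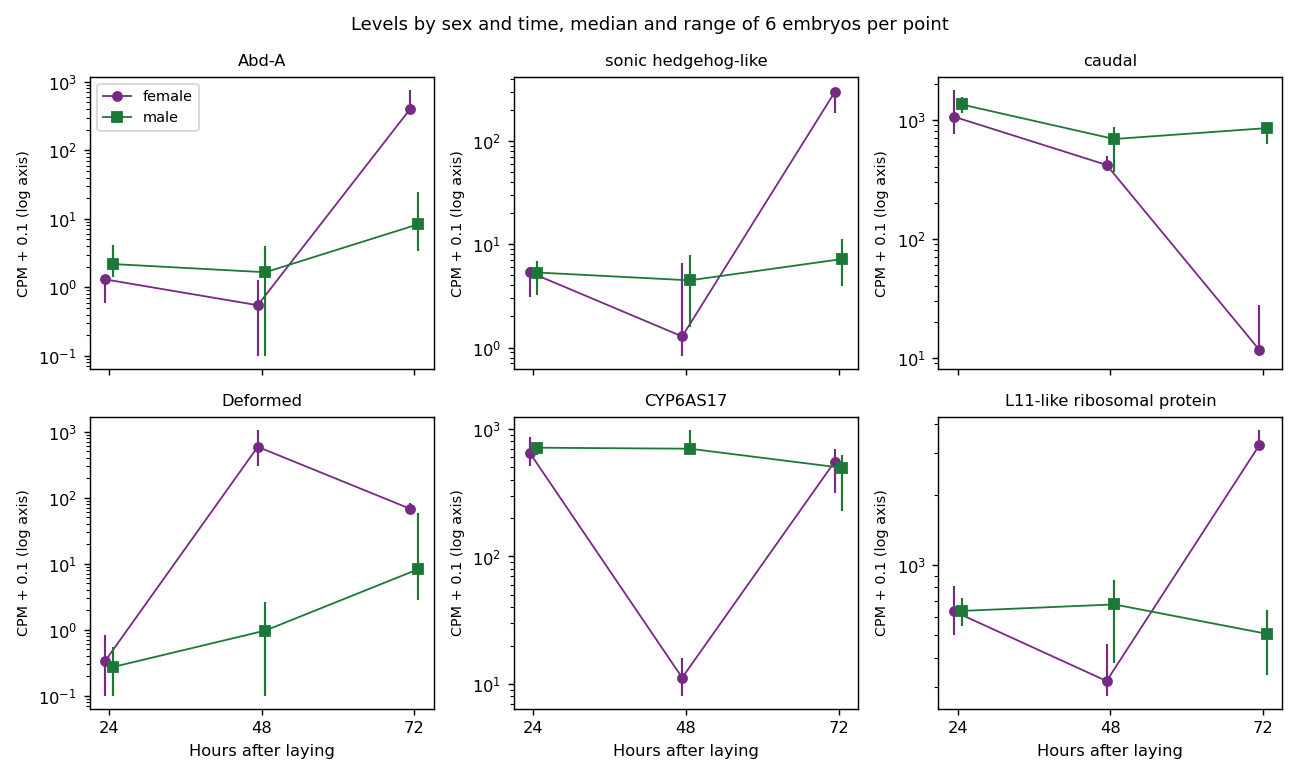
Median CPM (0.1 added, log axis) with the range of 6 embryos (times on the horizontal axis in hours AEL), female embryos in purple and male embryos in green, for 6 genes. Abd-A at 72 h had a median of 404 CPM in females and 8.21 CPM in males, and CYP6AS17 was low in 48 h females (11.1 CPM) and not in 48 h males (699 CPM).

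Male embryos of the same queens were used to ask where the change of females differed, by the interaction of sex and time over 24 embryos with queen as a term. Of 9386 genes the log2 change from 48 to 72 h was greater in females for 2081 (22.2%) and smaller for 1935 (20.6%). With library totals these counts were 3518 and 1130, so that the split between them depended on the scaling. The 72 h males had 1195774 to 2008560 counts, and LOC102655096 took 6.62% ± 2.45 of them. The part of these smaller libraries and their composition in the result was not tested. Of 77 cytosolic ribosomal protein genes 65 changed more in females and none less, and of 14 gap and pair-rule genes 12 had a smaller (more negative) difference in females and 1 a greater one. LOC726171 had a female minus male log2 difference of 3.56 ± 0.25, with male medians of 506 CPM at 72 h and 677 CPM at 48 h. Abd-A differed by 7.34 ± 0.77, and males had medians of 8.21 CPM at 72 h and 1.56 CPM at 48 h. Dfd differed by -6.99 ± 0.69, with male medians of 8.08 CPM at 72 h and 0.866 CPM at 48 h. The 3 greatest and 3 smallest called differences among genes with at least 10 CPM include genes at or near 0 in males, and their size is then not well set. LOC413043 had 0 to 3.73 CPM in 72 h males and 0 to 0.734 CPM in 48 h males, and its difference of 9.51 ± 2.60 was 8.91 without queen 2 replicate 29 of the 48 h males and 13.53 without queen 2 replicate 23 of the 72 h males. Six4 had 0 counts in all 72 h males, and among 48 h males it had counts in queen 2 replicate 21 alone (0.862 CPM), with a difference of 9.42 ± 2.73. Without that embryo no male had a count, and the call was lost (7.23, adjusted p = 1), so that no size can be given for this gene. LOC726124 had 0 to 89.5 CPM in 72 h males and 0 counts in all 48 h males, and its difference of -13.08 ± 1.60 was -11.24 without queen 2 replicate 23 of the 72 h males and -13.63 without queen 1 replicate 15 of the 72 h females. LOC102654620 had 4.03 to 22.4 CPM in 72 h males and 0.442 to 3.77 CPM in 48 h males (-12.37 ± 0.80, and -13.08 to -11.98 with 1 embryo left out). LOC551268 had 0 to 7.46 CPM and 4.31 to 9.52 CPM in males of 72 h and 48 h (8.14 ± 0.89, and 7.70 to 8.70 with 1 embryo left out). The uncharacterized LOC100577147, which fell in females, had male medians of 697 CPM at 72 h and 174 CPM at 48 h, a difference of -11.40 ± 0.42 that stayed between -11.61 and -11.19 with 1 embryo left out. For E74, Ecr and CycD the difference between the sexes was not called, with values of 0.51 ± 0.36, 0.42 ± 0.45 and 0.34 ± 0.41.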

How the data were processed

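Whole single embryos were profiled by RNA-seq of full-length cDNA that was amplified and transcribed before the libraries were made. The authors trimmed the reads, aligned them with TopHat2 to the Amel_4.5 assembly and deposited counts per gene and RPKM for every embryo; the strand setting of the counting is not given in the sources used here. Counts were tested with the quasi-likelihood test of edgeR 4.0.16 in R 4.3.3 (TMM scaling, filterByExpr with its settings of 10 counts and 15 in total, Benjamini-Hochberg adjustment) on the 12 female embryos of 72 h and 48 h, with queen as a term. Calls needed an adjusted p below 0.05 and a log2 fold change beyond 1 in either direction. Interactions of queen and time and of sex and time were tested in the same way. Deposited RPKM served only to compare levels between genes. Of 12365 genes 3423 had too few counts to test. Gene functions came from annotated products, sorted into 40 lists that can share genes. The groups and lists were chosen with earlier results of these data known. Genes were named by rule, namely of called genes with a mean of at least 10 CPM, a like direction in both queens and no overlap, the 12 highest and 12 lowest; in each list, of called members with at least 5 CPM, up to 3 highest and 3 lowest, and the 2 most abundant members; the 3 greatest and 3 smallest called interactions; and the 5 genes of highest RPKM at each time. This gave 256 genes, of which some are named in the text. LOC410689, Syt1 and Vg were set as markers, as were cuticle, sarcomere and royal jelly proteins, collagen alpha and chitin synthase. Chitin synthase is not given on its own in the text. On simulated counts the comparison of times recovered 92% of genes changed by a log2 of 1.5 and 97% of those changed by 3, with 4 false calls in 8868 genes, and the interaction of queen and time recovered 65% and 91%, with 6 false calls in 8938 genes. The simulation changed 100 genes of each size, equally up and down, and held no shift of composition. It therefore did not test the scaling. Alternatives were other scalings, no filter, DESeq2 1.42.0, other models, each queen alone and each embryo left out. P-values measure the spread between single embryos, daughters of the same queens.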

Additional observations from a re-analysis of the deposited data

Results flagged for a closer look

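Among 374 sets of 6 embryos, covering the genes named and the list sums at each time, 24 held a highest or lowest value far from the other 5, by Dixon's test at the 95% level, where chance gives about 1 set in 20. Of these values 11 were those of queen 1 replicate 15 of 72 h and 6 those of queen 2 replicate 30 of 48 h. In queen 1 replicate 15 of 72 h the highest values were 749 CPM for Abd-A (the others 343 to 450.01), 426 CPM for E74 (the others 172 to 266), 87.7 CPM for eve (the others 6.89 to 13.2), 27.8 CPM for cad (the others 10.3 to 12), 74.6 CPM for LOC726124 (the others 17.1 to 22.9) and 74.4 CPM for LOC726487 (the others 14.3 to 31.2). The same embryo was highest with 115 CPM for LOC100576568 (the others 10.4 to 20.3), 32669.5 CPM for LOC100578903 (the others 5149 to 11548), 0.818 CPM for LOC102656356 (the others 0 to 0.306) and 361 CPM for LOC409681 (the others 152 to 191), and lowest with 187 CPM for LOC102655561 (the others 280.2 to 309.5). In queen 2 replicate 30 of 48 h the highest values were 6.48 CPM for LOC102655561 (the others 0.73 to 1.53), 456 CPM for LOC726171 (the others 275 to 326), 251 CPM for RpL10Ab (the others 104 to 154), 73.1 CPM for mRpS12 (the others 58 to 63) and 9.71 CPM for nAChRa3 (the others 2.68 to 3.96), and its summed cytosolic ribosomal proteins came to 70489.7 CPM (the others 48145 to 56359). Queen 2 replicate 22 of 72 h was highest with 183 CPM for LOC408411 (the others 117 to 141), 54.4 CPM for Pole3 (the others 41.7 to 45.9) and 0.517 CPM for Vg (the others 0 to 0.135). Queen 1 replicate 15 of 48 h had 15.3 CPM for LOC412890 (the others 2.59 to 5.39) and the highest total, 7944906 counts (the others 5503556 to 6308504). Queen 2 replicate 29 of 48 h had 4.97 CPM for LOC100576700 (the others 2.9 to 3.55), and queen 2 replicate 18 of 48 h had the lowest sum of tanning and pigment enzymes, 231 CPM (the others 333 to 391).

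By the tests of a difference between groups, the log2 change of LOC724225 differed between queens by -2.32 (queen 2 minus queen 1), and the change differed between the sexes for 2081 genes with a greater and 1935 with a smaller value in females. Called genes with a mean of at least 10 CPM and a large difference, females minus males, were LOC413043 (9.51), Six4 (9.42) and LOC551268 (8.14), and LOC726124 (-13.08), LOC102654620 (-12.37) and LOC100577147 (-11.40). Except for LOC100577147, some or all males were at or near 0 at 1 or both times, so that these sizes and their order are not well set. With 1 embryo left out LOC413043 ranged between 8.91 and 13.53, LOC726124 between -13.63 and -11.24 and Six4 between 7.23 and 9.79, and the call of Six4 was lost without queen 2 replicate 21 of the 48 h males.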

How the results depend on the processing

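The counts of genes higher and lower at 72 h stayed within 1.5 times under DESeq2 size factors, upper-quartile scaling, library totals, no filter, the Wald test of DESeq2, no queen term, the fit of all 36 embryos, each queen alone and each embryo left out (1968 to 2076 higher and 1042 to 1091 lower). Of the 2988 calls 2734 were shared with library totals, 2957 with DESeq2 size factors and 2881 to 2925 with 1 embryo left out. Without a limit on the fold change 3324 genes were higher and 3134 lower. The count of genes that differ between queens, reported as 1, was 2 with no filter, 18 by the Wald test of DESeq2 and 0 to 5 with 1 embryo left out. The counts of changes greater and smaller in females than in males were 3518 and 1130 with library totals, and 2044 to 2149 and 1851 to 1999 with 1 embryo left out. Of the named genes CPF1 was also not called with upper-quartile scaling (-0.97), with library totals (-0.87) or in queen 2 alone (-0.82), and Kr was called in queen 1 alone (-1.03). With library totals 2 named genes given above as not called were called. Library totals turned the sign of the median of 6 of 40 lists: cell cycle (0.17), heat shock (0.05), haemolymph (0.06), olfactory and taste (0.02), neurotransmitter receptors (0.16) and proteasome (0.13). They also gave 5 histone genes higher, and 3 splicing, 1 oxidative phosphorylation, 1 chitin, 1 gut and 2 hormone genes lower. The median also changed sign in 5 lists in the fit of all 36 embryos and in 5 within queen 1 alone. It did so in 4 lists without queen 1 replicate 15 of 72 h, in 3 with upper-quartile scaling and in 3 within queen 2 alone. With no filter 17 list counts moved by more than 1.5 times, or to or from 0, and 11 did with library totals. One list count changed by a single gene without queen 2 replicate 29 of 72 h (germline, 1 higher) and without queen 1 replicate 8 or queen 2 replicate 29 of 48 h (splicing, 1 higher), and septate junction genes had 1 lower without queen 1 replicate 8, queen 2 replicate 18 or queen 2 replicate 30 of 48 h or queen 2 replicate 25 of 72 h. No paired analysis was possible because each library came from a separate whole embryo, and a shared replicate number does not mark a pair. Depth limits genes with a few counts at 48 h, whose fold changes depend on those counts.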
